A study of Jaculus jaculus with 29 samples.

Results

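Pkd2l1, Pkd1 and Pkd2 are the polycystin genes described here in the supraoptic nucleus of the lesser Egyptian jerboa, a desert rodent. They were found by symbol in the authors' deposited table of the dehydration comparison and joined by gene identifier to the count table, in which they are 3 of 29170 genes. Pkd2l1 was selected on its measured difference between Dehydrated and Control in these libraries, so that difference is given below as a description and without a test. Polyadenylated RNA was sequenced from punches of the nucleus, whose large neurons release vasopressin and oxytocin into the blood. The 29 libraries come from 10 Control animals with water always available, 10 Dehydrated animals after 11 days of water restriction, and 9 Rehydrated animals restricted for 7 days and given water again for 3 days. All animals were housed alone with dry food always available. Strain and age are not given in the sources used here, and the sexes were mixed in every group (5 females and 5 males, 6 and 4, and 4 and 5). Total counts per library ran from 10797577 to 18856620.

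Polycystins fall into channel-like and receptor-like proteins. Polycystin-2, from Pkd2, is a cation channel of the transient receptor potential (TRP) superfamily, while polycystin-1, from Pkd1, is a very large membrane protein with a receptor-like outer part that associates with it. Both proteins are found in the primary cilium, the single sensory projection of most cells, and loss of either causes polycystic kidney disease. Pkd2l1 encodes a relative of polycystin-2 that forms a calcium-permeable channel and is best known in the nervous system as the marker of neurons that touch the cerebrospinal fluid, and that channel has been linked to acid and osmotic stimuli. Whether such neurons are in these punches is not given by the labels, and in bulk tissue fewer cells of a type and less RNA per cell cannot be told apart.

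The counted models lie on 3 chromosomes of the mJacJac1.mat.Y.cur assembly. Pkd2l1 (ENSJJAG00000013834) spans chromosome 1 from 35488724 to 35525013 on the plus strand, with 3241 exonic bases in 17 blocks. RefSeq starts the same gene at 35346472, 142 kb earlier, so the counted model may hold only part of it. A RefSeq long non-coding RNA, LOC123462796, runs from 35518333 to 35526803 across the 3′ end of Pkd2l1, and 1392 of the exonic bases of Pkd2l1 (42.9%) lie inside its span. The counting used no strand option, so reads from that RNA cannot be told apart from Pkd2l1 reads where their exons overlap. Pkd1 (ENSJJAG00000014558) spans chromosome 11 from 111053549 to 111081043 on the plus strand with 13131 exonic bases in 42 blocks. Its last 599 exonic bases (4.56%) are shared with Tsc2 on the opposite strand. Pkd2 (ENSJJAG00000023331) spans chromosome 2 from 110481897 to 110524359 on the minus strand with 3920 exonic bases in 15 blocks.

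Pkd2l1, a channel gene, had the lowest level per length of exon of the 3 genes. In Control its level was lowest at 7.23 CPM (counts scaled to a common library total by TMM), with a median of 11.8 and a highest value of 21.5. In Dehydrated the lowest was 1.57, the median 5.95 and the highest 8.84 CPM. In Rehydrated the lowest was 5.74, the median 10.4 and the highest 13.1 CPM. Every Dehydrated library lay below the Control median, and 7 of 10 lay below all Control libraries. The overlap came from Control M04 at 7.23 CPM, which lay under Dehydrated F04 (7.31), M06 (8.7) and F07 (8.84), and the other 9 Control libraries were above all Dehydrated ones.

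The group means of Pkd2l1 were 12.8 ± 4.1 CPM in Control (SD, n = 10), 5.5 ± 2.49 in Dehydrated (SD, n = 10) and 10.1 ± 2.39 in Rehydrated (SD, n = 9). The fitted difference of Dehydrated minus Control was -1.23 on the log2 scale (SE 0.23), a level 0.426 times that of Control. The authors' deposited table gives -1.23 with a standard error of 0.23 for Dehydrated against Control, with 46 of its 17540 genes with an adjusted p-value under 0.05 (0.262%). That table does not rest on the same set of labelled libraries: its 28 columns of per-library values include none with the code of Control M01, and some of their codes match no label. With all genes tested by edgeR's quasi-likelihood test, 22 of 17558 genes passed an adjusted p of 0.05 in Dehydrated against Control (0.125%), of which 20 rose and 2 fell. Since this contrast chose Pkd2l1, nothing is read from that count for the gene. Over 12 other settings, such as the replicate block, the 2 groups alone or each sex alone, the difference ran from -1.27 to -1.17. Such sizes describe the contrast that chose the gene, and their stability is not a test of it. The size of the difference stayed between -1.36 and -1.11 with each of the 29 libraries left out in turn. The 3 lowest Pkd2l1 values rest on 27 reads in Dehydrated M08, 36 in F06 and 54 in F03, and at 27 reads counting alone gives an SD of 19.2%.

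**Figure D1:**
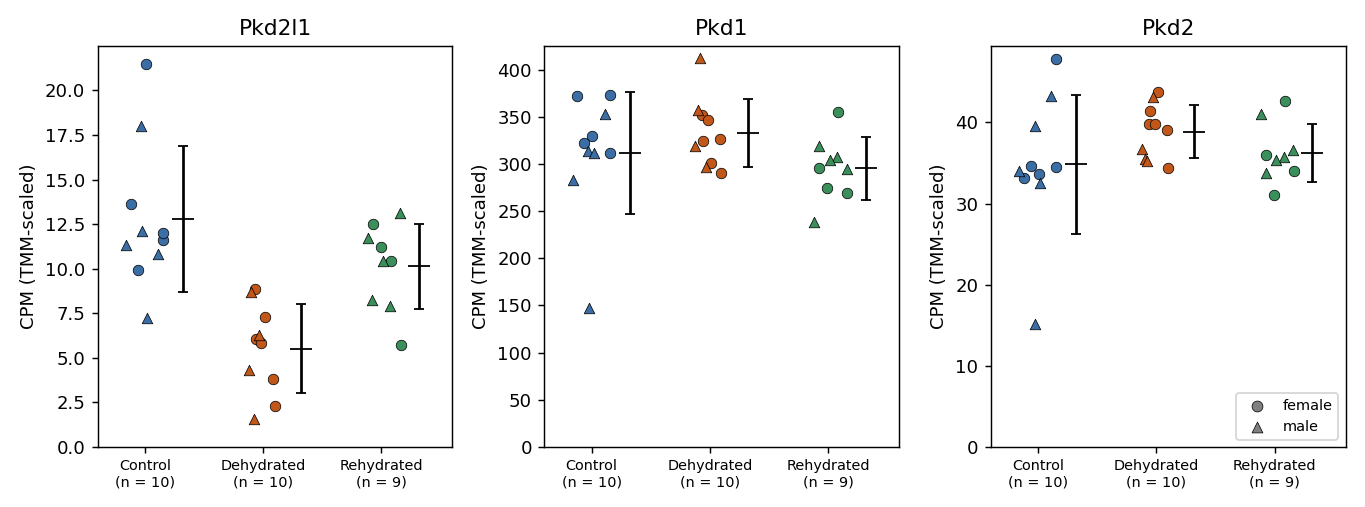
Level of Pkd2l1, Pkd1 and Pkd2 in each library, in TMM-scaled CPM on linear axes that start at 0, by group; circles are females, triangles are males, and bars give the group mean and SD. The Dehydrated libraries of Pkd2l1 sit between 1.57 and 8.84 CPM, and a single Control library stands far below the rest in Pkd1 and Pkd2.

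In Rehydrated, the mean and median of Pkd2l1 lay between those of the other groups. These animals were restricted for 7 days and the Dehydrated ones for 11, and no group was sampled after 7 days without water returned. The return of water and the shorter restriction therefore cannot be told apart here. Of the 9 Rehydrated libraries 6 lay above all Dehydrated ones, and 1, Rehydrated F06 at 5.74 CPM, lay below all Control ones. The Rehydrated minus Dehydrated difference was 0.90 on the log2 scale (SE 0.24, 95% interval 0.43 to 1.37), with an unadjusted p of 0.000792 and an adjusted p of 0.604 by edgeR's test over all genes, so it was not called. In that comparison 4 of 17558 genes were called (0.0228%), and all 4 were lower in Rehydrated. The Rehydrated minus Control difference was -0.33 (SE 0.24, interval -0.79 to 0.13, edgeR adjusted p 0.756), which leaves room for a level equal to Control and for one well below it. No gene passed in Rehydrated against Control (0%), where 1313 genes had an unadjusted p under 0.05 by edgeR and DESeq2 called 18. These differences share the Dehydrated or the Control libraries with the contrast that chose Pkd2l1, so they are not independent of the choice.

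The sexes overlapped in Pkd2l1 level in each group. Females averaged 13.7 ± 4.53 CPM in Control (SD, n = 5) and males 11.9 ± 3.9 (SD, n = 5). In Dehydrated the female mean was 5.69 ± 2.36 (SD, n = 6) and the male mean 5.21 ± 3.02 (SD, n = 4). In Rehydrated the female mean was 9.95 ± 2.94 (SD, n = 4) and the male mean 10.3 ± 2.21 (SD, n = 5). The male minus female difference over all groups was -0.11 on the log2 scale (SE 0.19, interval -0.48 to 0.27, edgeR adjusted p 0.993). The dehydration difference in males minus that in females was 0.07 (SE 0.48, interval -0.88 to 1.02, edgeR adjusted p 0.986), an interval wide enough to hold a difference of either sign, and its sign turned when any of 6 single libraries was left out. Over all genes, 6 of 17558 were called between the sexes (0.0342%) and none for the sex difference of the dehydration response (0%), for which 1063 genes had an unadjusted p under 0.05 by edgeR and DESeq2 called 2.

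Pkd1, the polycystin-1 gene, was the most abundant member. Its Control levels ran from 146.8 CPM to 373.7 with a median of 318.1, its Dehydrated levels from 290.1 to 412 with a median of 325.8, and its Rehydrated levels from 238.2 to 355.7 with a median of 295.3. The groups overlapped throughout, and the low end of Control was Control M01 alone, the next library being M06 at 283.5 CPM. The Dehydrated minus Control difference of Pkd1 was 0.09 on the log2 scale (SE 0.10), and it was 0.01 without Control M01. Rehydrated minus Control was -0.07 (SE 0.11, interval -0.28 to 0.14, edgeR adjusted p 0.885), or -0.16 (adjusted p 0.582) without that library. Rehydrated minus Dehydrated was -0.16 (SE 0.11, interval -0.37 to 0.05, edgeR adjusted p 1). Of the 9 Rehydrated libraries 8 lay below the Dehydrated median of Pkd1.

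Among the members, Pkd1 had the largest estimated sex difference of the dehydration response. Control females averaged 342 ± 29 CPM (SD, n = 5) and Control males 281.7 ± 79.4 (SD, n = 5), while Dehydrated females averaged 323.6 ± 24.6 (SD, n = 6) and Dehydrated males 346.3 ± 50.5 (SD, n = 4). The dehydration difference was 0.38 larger in males on the log2 scale (SE 0.21, interval -0.03 to 0.78), with an unadjusted p of 0.077 and an adjusted p of 0.817 by edgeR, so it was not called. Control M01 is a male library, and without it the value was 0.21. Over all groups the male minus female difference of Pkd1 was -0.07 (SE 0.09, edgeR adjusted p 0.993).

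Pkd2, the polycystin-2 channel gene, had less spread in the Dehydrated and Rehydrated libraries than in Control. Control levels ran from 15.1 to 47.8 CPM with a median of 34.3. Dehydrated levels ran from 34.4 to 43.7 with a median of 39.5, and Rehydrated levels from 31 to 42.6 with a median of 35.7. All 10 Dehydrated libraries lay above the Control median but inside the Control range. Without Control M01 the Control median was 34.5 CPM, and Dehydrated F06 at 34.4 lay below it. The lowest value was again that of Control M01, and without it Control averaged 37 ± 5.38 CPM (SD, n = 9) in place of 34.8 ± 8.58 (SD, n = 10). The Dehydrated minus Control difference was 0.15 on the log2 scale (SE 0.11), and 0.07 without that library. Rehydrated minus Control was 0.06 (SE 0.12, interval -0.17 to 0.29, edgeR adjusted p 0.909) and turned to -0.03 without Control M01. Rehydrated minus Dehydrated was -0.09 (SE 0.12, interval -0.32 to 0.14, edgeR adjusted p 1).

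Control M01 also stands apart over all genes, at 137 on the first principal component against a highest value of 7.76 among the other libraries. It had the lowest total count of the 29 libraries, 10797577, and the fewest genes with a read, 19384. In Pkd2l1 this library was not extreme, at 12.1 CPM, and the Pkd2l1 difference between Dehydrated and Control was -1.23 without it. The part of this library's overall profile in its low Pkd1 and Pkd2 was not tested.

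**Figure D2:**
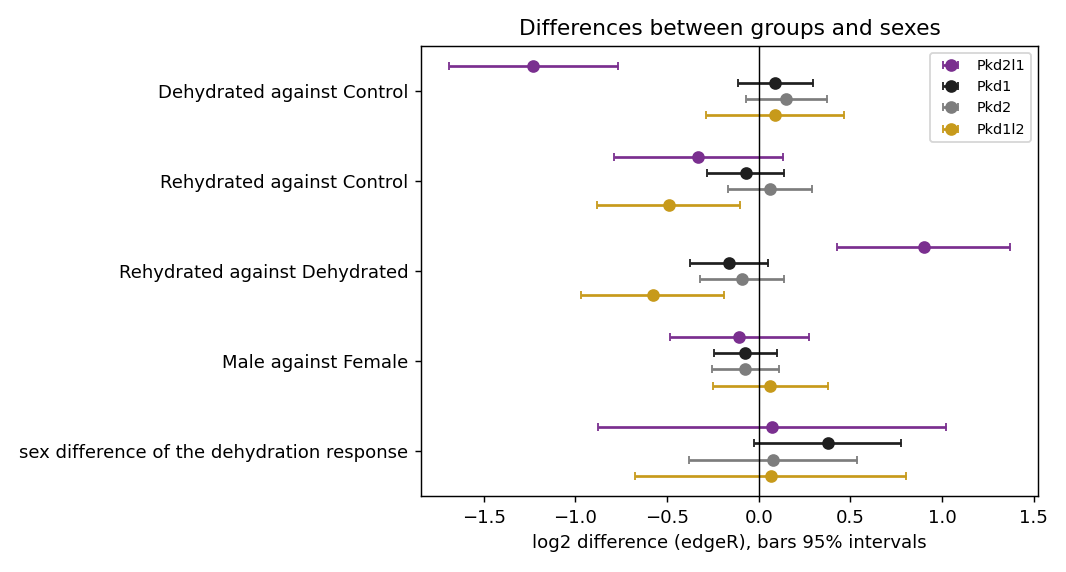
Fitted log2 differences of Pkd2l1, Pkd1, Pkd2 and Pkd1l2 between groups, between sexes, and of the dehydration response between sexes; points are edgeR estimates and bars are 1.96 standard errors. The Pkd2l1 point of -1.23 for Dehydrated against Control is the difference on which the gene was selected, and its Rehydrated minus Dehydrated point lies at 0.90.

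Per length of exon the order of the family was the same in all 3 groups for the leading genes. Pkd1 stood first, at 23.7 ± 4.93 CPM per kb in Control (SD, n = 10), 25.3 ± 2.77 in Dehydrated (SD, n = 10) and 22.5 ± 2.53 in Rehydrated (SD, n = 9). Pkd2 was next, at 8.89 ± 2.19, 9.92 ± 0.844 and 9.25 ± 0.921 CPM per kb in the same groups and with the same numbers. Pkd2l1 followed in Control (3.95 ± 1.27 CPM per kb) and Rehydrated (3.12 ± 0.737), but in Dehydrated its 1.7 ± 0.768 lay under the 2.9 ± 0.575 of Pkd1l2. Averaged over the 29 libraries, Pkd1 exceeded 74.7% of the tested genes in level per length, Pkd2 47.7% and Pkd2l1 21.2%. The ranges of Pkd1 and Pkd2 did not meet within Dehydrated or Rehydrated, and in Control only the Control M01 value of Pkd1, 11.2 CPM per kb, fell inside the range of Pkd2. Pkd2l1 and Pkd1l2 overlapped in all groups.

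The ratio of Pkd1 to Pkd2 per kb, which does not depend on the library total, averaged 2.73 ± 0.424 in Control (SD, n = 10), 2.58 ± 0.425 in Dehydrated (SD, n = 10) and 2.45 ± 0.302 in Rehydrated (SD, n = 9). Control M01 had a ratio of 2.9, inside the range of the other Control libraries, since both its genes were low together. The lowest ratio, 1.73, was in Rehydrated M04, whose Pkd1 was the lowest of its group at 238.2 CPM and whose Pkd2 was high at 41.1 CPM.

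**Figure D3:**
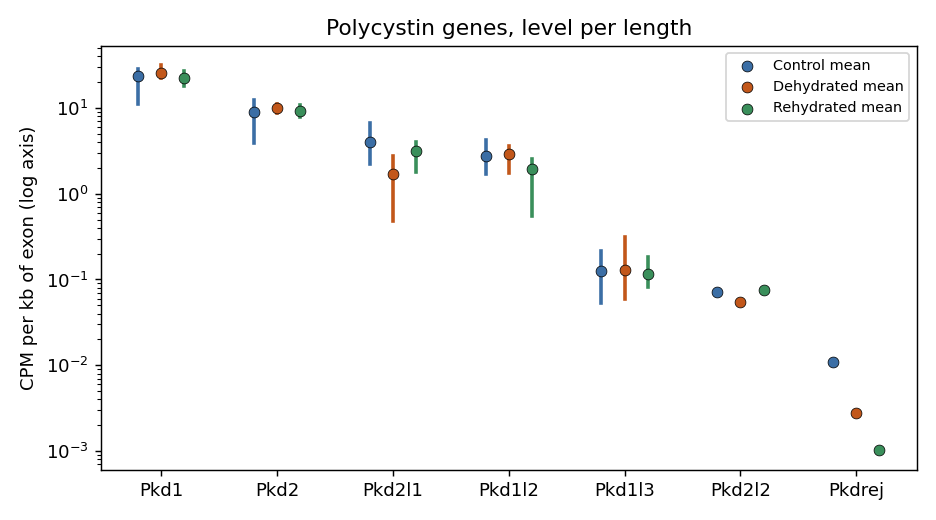
Level of 7 polycystin genes in CPM per kb of exon on a log axis; points are group means, and vertical lines run from the lowest to the highest library for the 5 genes that were tested. Pkd1 leads at 22.5 to 25.3, and Pkd2l1 in Dehydrated (1.7) lies under Pkd1l2 (2.9).

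The list of other polycystins holds 5 genes, of which 4 had a row in the count table under a matched name and 2 passed the filter on low counts. Pkd1l1 was not matched. Pkd1l2, a receptor-like relative of Pkd1, ran from 13.1 to 32.9 CPM in Control with a median of 20.9, from 13.5 to 27.7 in Dehydrated with a median of 22.4, and from 4.22 to 19.7 in Rehydrated with a median of 15.8. All 9 Rehydrated libraries were below the medians of both other groups, and 7 of 10 Dehydrated libraries were above all Rehydrated ones. The Rehydrated minus Dehydrated difference of Pkd1l2 was -0.58 on the log2 scale (SE 0.20, unadjusted p 0.00667, edgeR adjusted p 1) and the Rehydrated minus Control difference was -0.49 (SE 0.20, unadjusted p 0.0196, edgeR adjusted p 0.592), so neither was called. Rehydrated M04 at 4.22 CPM was the low end, and without it these differences were -0.46 and -0.36.

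The remaining family members were near the limit of counting. Pkd1l3, known as a partner of Pkd2l1 in taste cells, averaged 0.915 ± 0.449 CPM in Control (SD, n = 10), 0.941 ± 0.533 in Dehydrated (SD, n = 10) and 0.847 ± 0.273 in Rehydrated (SD, n = 9), from 4 to 33 reads a library, and its groups overlapped. Pkd2l2, a channel-like relative known from testis, had reads in 16 of 29 libraries and at most 14 reads. Pkdrej, a receptor-like relative known from sperm, had reads in 7 of 29 libraries and at most 5. Neither passed the filter, and no difference could be measured for them at this depth.

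Across libraries, with group means removed, no relation between the members passed the test. Over the 29 libraries Pkd2l1 and Pkd1 had Pearson r -0.04 (permutation p 0.795, adjusted 0.843 over 5 relations) and Spearman rho -0.01 (permutation p 0.94, adjusted 0.94). Pkd2l1 and Pkd2 had r 0.18 (permutation p 0.265, adjusted 0.535) and rho 0.34 (permutation p 0.0723, adjusted 0.362). Without Dehydrated M08 and F06, the libraries farthest from the Pkd2l1 median, r was 0.06 with Pkd1 and 0.09 with Pkd2. Without Control M01 the r of Pkd2l1 with Pkd2 was 0.31 (permutation p 0.0861). Pkd1 and Pkd2 had r 0.67 (permutation p 0.0684, adjusted 0.342) but rho 0.11 (permutation p 0.577, adjusted 0.94). That r rests on Control M01: without it and Rehydrated M04 r was 0.02, and without Control M01 alone r was -0.09 and rho -0.07. All these permutation tests were two-sided, with 100000 permutations within groups.

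**Figure D4:**
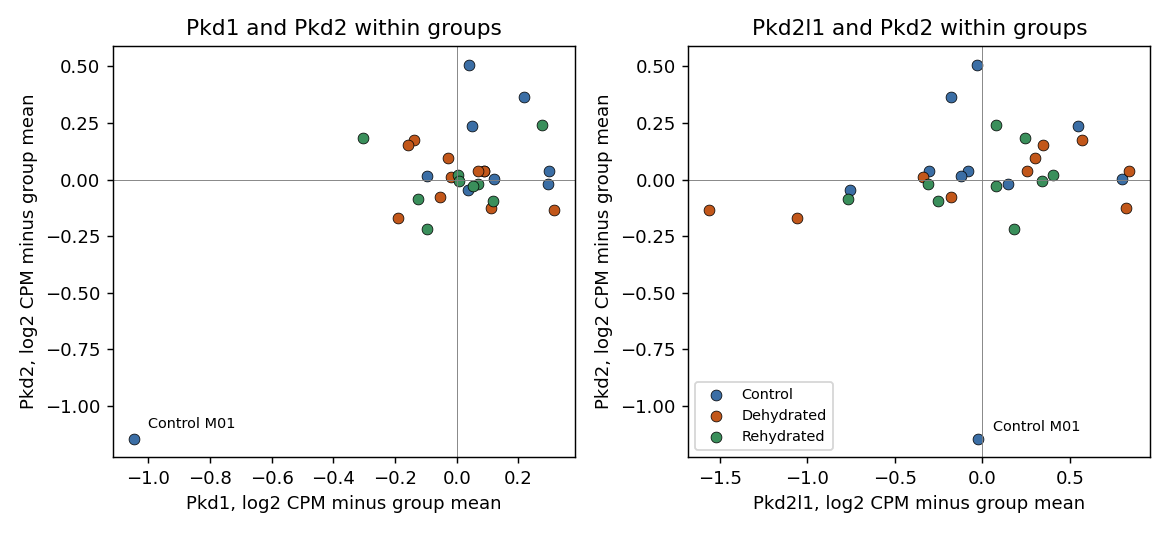
Log2 CPM of each library as the deviation from its group mean, Pkd2 against Pkd1 at left and Pkd2 against Pkd2l1 at right, coloured by group. At left the r of 0.67 comes from Control M01 at the lower left, and without that library r is -0.09.

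The relations of Pkd2l1 with the hormone genes within groups did not pass either. Avp, the vasopressin gene, was between 200.7 and 5179.1 CPM over the 29 libraries and Oxt, the oxytocin gene, between 159.3 and 1975.1. The defining transcripts of the nucleus were thus present in every library, but not at like levels. Both lowest values were in Rehydrated M08, whose log2 deviations from the group mean were -3.01 for Avp and -1.99 for Oxt. How much of the nucleus that punch held was not tested. The deviations of Pkd2l1 and Avp had r 0.03 (permutation p 0.843, adjusted 0.843) and rho -0.03 (permutation p 0.863, adjusted 0.94). Those of Pkd2l1 and Oxt had r 0.17 (permutation p 0.321, adjusted 0.535) and rho 0.16 (permutation p 0.395, adjusted 0.94). Without Dehydrated M08 and F06 the r values were 0.03 with Avp and 0.12 with Oxt.

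The named genes whose levels followed Pkd2l1 most closely over the 29 libraries, among 12146 named genes that were tested and averaged 1 or more in log2 CPM, were Ubtf (Spearman rho 0.65), Slc50a1 (0.65), Dusp9 (0.62), Zkscan6 (0.62) and Mamld1 (0.61). Ubtf encodes a factor of ribosomal RNA transcription, Slc50a1 a sugar transporter and Dusp9 a phosphatase of MAP kinases. Their Dehydrated minus Control differences ran from -0.68 for Dusp9 to -0.11 for Ubtf on the log2 scale, and none of the 5 was called. With group means removed the closest were Kcnj14 (0.67), Rhbdd1 (0.62), Zscan26 (0.57), Ep300 (0.57) and Plp2 (0.56). Kcnj14 encodes an inward rectifier potassium channel and Ep300 a histone acetyltransferase. No gene was in both sets of 5. Pkd2 ranked 356 of 12146 on the second measure and Pkd1 6475. These are descriptions of libraries that share group, depth and dissection.

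The pathway lists around the polycystins held no called gene in any of the 3 treatment comparisons. Of 24 TRP channel genes outside the polycystins, 19 were tested and none passed in Dehydrated against Control, with a median of 0.05 on the log2 scale against 0 over all genes. The 2 with the smallest p were Trpc5, a calcium-permeable channel of neurons, at 0.34 (SE 0.20), and Trpm2, a channel opened by oxidative stress, at -0.21 (SE 0.13). Trpv1 and Trpv4, channels often discussed in osmotic sensing and singled out here after their values were seen, averaged 3.46 and 1.82 CPM in Control and 3.5 and 2.04 in Dehydrated.

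The endoplasmic reticulum list holds mainly genes for folding, glycosylation and trimming of polycystins, such as Ganab and Alg9, with some genes of other roles. Of its 11 genes 10 were tested and none passed, with a median of -0.02 and a range from -0.13 to 0.15 in Dehydrated against Control. Ganab, a glucosidase subunit that trims new glycoproteins, differed by 0.07 (SE 0.05), and Alg9, a mannosyltransferase, by 0.15 (SE 0.11).

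Of 60 primary cilium genes 57 were tested, and none passed in Dehydrated against Control, where 38 were above 0 and 19 below with a median of 0.06. Over all 17558 genes 50.8% were below 0. Ift27, a small GTPase of ciliary transport, was lowest at -0.42 (SE 0.13, edgeR adjusted p 0.461), and B9d2, of the ciliary gate, was at -0.40 (SE 0.18, edgeR adjusted p 0.735). The highest of the list was at 0.41. In Rehydrated against Control the cilium median was 0.08 and in Rehydrated against Dehydrated 0.01, with no gene called.

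All 14 calcium store genes were tested and none passed. Their median in Dehydrated against Control was 0.08, and the highest was Atp2a3, a calcium pump of the endoplasmic reticulum, at 0.67 (SE 0.23, edgeR adjusted p 0.566). Ryr1, a calcium release channel, was at 0.23 (SE 0.13, edgeR adjusted p 0.785).

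**Figure D5:**
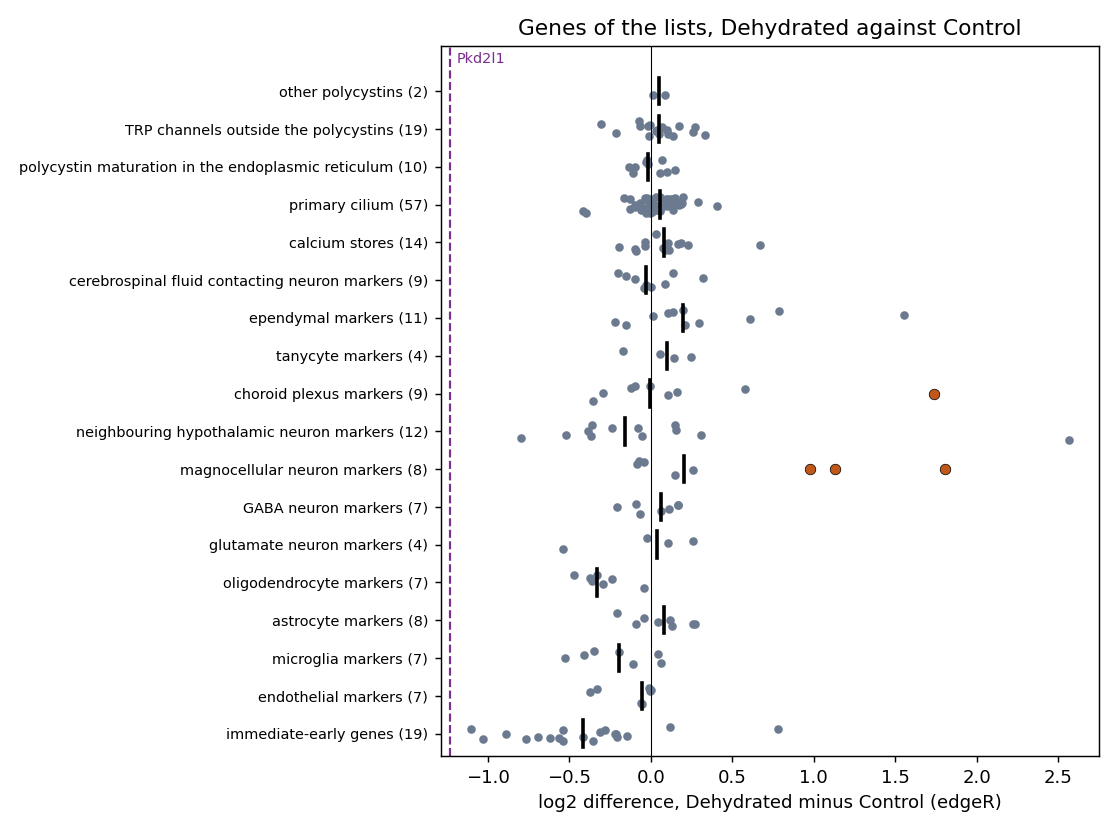
Log2 difference of Dehydrated minus Control for every tested gene of the 18 lists, 1 point a gene, with the number of genes in brackets; black bars are list medians, orange points passed an adjusted p of 0.05, and the dashed line marks Pkd2l1. The only orange points are Kl, Caprin2, Pdyn and Avp, all at or above 0.98. The Pkd2l1 value of -1.23 is the difference on which that gene was selected, so its place beside the lists is not a test.

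Markers of cells that could carry Pkd2l1 were measured beside it. The list of cerebrospinal fluid contacting neurons, without Pkd2l1 itself, has 14 genes, of which 12 were in the table, 9 were tested and none was called in any treatment comparison. Its median was -0.03 in Dehydrated against Control, and the smallest p values were those of Tal2, a transcription factor of these neurons, at 0.32 (SE 0.21), and Nkx2-2 at -0.15 (SE 0.16). The summed level of the list ran from 117.7 to 181.1 CPM in Control, from 111.4 to 162.6 in Dehydrated and from 109.5 to 151.5 in Rehydrated. Of 4 genes of this list singled out after their values were seen, Foxa2 had no read in any library, Gata3 averaged at most 0.204 CPM in any group, and Gata2 averaged 4.77 CPM in Control and 4.61 in Dehydrated. The fourth, somatostatin, was the largest part of the sum and is made by other hypothalamic neurons too. Pkd1l2 is also in this list. In Control the other genes of the list averaged 23 CPM (Carhsp1), 12.6 (Nkx2-2), 10.3 (Tal2), 6.1 (P2rx2), 2.75 (Nkx6-1), 2.18 (Myo3b) and 0.14 (Uts2b). In Rehydrated against Control the list's median was -0.06 and its lowest value -0.97, with 3 genes above 0 and 6 below. There 2 of the 9 tested genes had an unadjusted edgeR p under 0.05, against 7.48% of all genes, and none was called.

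Ependymal, tanycyte and choroid plexus lists, for cells lining the ventricles, had 11, 4 and 9 tested genes. The ependymal median was 0.20 in Dehydrated against Control and 0.50 in Rehydrated against Control with no gene called. With single libraries left out these medians ran from 0.02 to 0.29 and from 0.33 to 0.64, and the first ran from -0.05 to 0.48 over the other settings. The lowest, 0.02, was without Dehydrated F03. The summed level ran from 54.6 to 109.3 CPM in Control, from 58 to 157.6 in Dehydrated and from 58.3 to 175.3 in Rehydrated. Its genes with the smallest p were Ccdc153 at 0.79 and Hydin at 0.61, both of motile cilia. Of the 11 tested, 9 were above 0 and 2 below in Dehydrated against Control, and 10 and 1 in Rehydrated against Control. In the latter, 3 of the 11 had an unadjusted edgeR p under 0.05, against 7.48% of all genes. Some levels were singled out after they were seen. Tmem212 had at most 2 reads. Foxj1, Tekt1, Rsph1 and Hydin averaged 13, 17.2, 11.2 and 7.92 CPM in Control, with reads in all 29 libraries. Cfap126 averaged 0.586 CPM in Control, 1.76 in Dehydrated and 3.38 in Rehydrated. The tanycyte median was 0.10, led by Frzb at 0.24 (SE 0.09) and Col25a1 at 0.14. Kl, the gene of the ageing-related membrane protein klotho, rose by 1.74 (SE 0.37, edgeR adjusted p 0.0476), from 1.09 CPM in Control to 3.71 in Dehydrated, while the choroid plexus median was 0. The call of Kl was lost when any of 25 single libraries was left out, with adjusted p from 0.0186 to 0.152 over the 29, and in 5 of 12 other settings.

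Of the 8 magnocellular neuron genes 3 rose in Dehydrated against Control, where 0.125% of all genes were called. The list's median was 0.20, with 3 genes below 0, among them Oxt at -0.07 (SE 0.35). Avp rose by 1.81 (SE 0.37, edgeR adjusted p 0.0388), Pdyn, the dynorphin precursor that these neurons make with vasopressin, by 1.13 (SE 0.18, edgeR adjusted p 0.00369), and Caprin2, an RNA-binding protein of these neurons, by 0.98 (SE 0.18, edgeR adjusted p 0.0109). The Avp call was lost when any of 19 single libraries was left out, with adjusted p from 0.00681 to 0.106 over the 29, and in 6 of 12 other settings. Pdyn and Caprin2 kept their calls with every library left out and lost them in 2 and 3 of the 12 settings, females alone and males alone among them. The list's summed level ran from 932.4 to 3844 CPM in Control, from 2425.5 to 7207 in Dehydrated and from 687 to 5519.7 in Rehydrated.

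No gene of the other cell type lists was called in any treatment comparison. In Dehydrated against Control the medians were -0.16 for neighbouring hypothalamic neurons (12 tested), 0.06 for GABA neurons (7), 0.04 for glutamate neurons (4), -0.33 for oligodendrocytes (7), 0.08 for astrocytes (8), -0.20 for microglia (7) and -0.06 for endothelial cells (7). With single libraries left out the median of neighbouring neurons ran from -0.31 (without Dehydrated M06) to -0.05 (without Dehydrated M08), and that of oligodendrocytes from -0.43 to -0.21, the latter without Control M05. The microglia median ran from -0.30 to 0.05, and it was above 0 only without Control M01. All 7 oligodendrocyte genes were below 0, against 50.8% of all genes, with Cnp, a myelin enzyme, at -0.37 (SE 0.19) and Mag, a myelin glycoprotein, at -0.36. In Rehydrated against Control the oligodendrocyte median was -0.45, with 6 genes below 0 and 1 above. There 4 of the 7 genes had an unadjusted edgeR p under 0.05, against 7.48% of all genes, and none was called. Their summed level ran from 2555.7 to 6511.7 CPM in Control, from 2347.9 to 6270.4 in Dehydrated and from 1136.3 to 8121.5 in Rehydrated. Vip, a peptide of the neighbouring suprachiasmatic nucleus, was at 2.56 (SE 0.54, edgeR adjusted p 0.0509), and Ghrh, the growth hormone releasing hormone gene, at -0.80. The smallest p values elsewhere were those of Gad1 (0.17), Tbr1 (0.26) and Slc17a7 (-0.54), Aldh1l1 (0.27) and Slc1a3 (0.13), C1qb (-0.52) and C1qa (-0.41), and Cldn5 (-0.37) and Vwf (-0.33).

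Immediate-early genes, which neurons switch on within minutes of stimulation, had a median of -0.42 in Dehydrated against Control, and 17 of 19 tested were below 0, but none was called. An unadjusted p under 0.05 was found for 11 of the 19, against 6.37% of all genes. The genes of the list share the same libraries, so such counts are not counts of independent tests. The median was -0.18 in females alone and -0.94 in males alone. With both sexes and single libraries left out, the list's median ran from -0.48 to -0.34. By sex label the Control males include Control M01 and Control F03, the libraries that differed most from the rest of Control over all genes. The part of these libraries in the difference between the sexes was not tested. For the sex difference of the response, males minus females, the list's median was -0.74 with 15 of 19 below 0 and 8 with an unadjusted p under 0.05, against 6.05% of all genes, and none was called. Fos was at -1.03 (SE 0.31, edgeR adjusted p 0.461) and Junb at -0.69 (SE 0.21, edgeR adjusted p 0.461). Their summed level ran from 196.5 to 540.3 CPM in Control, from 160.5 to 257.9 in Dehydrated and from 185.6 to 491.4 in Rehydrated. The part of the oligodendrocyte, immediate-early and magnocellular lists in the Pkd2l1 difference was not tested.

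Tsc2, Bloc1s2 and Spp1, which overlap a member or lie near it, were read beside the members. Tsc2, which shares exonic bases with Pkd1, averaged 144.6 ± 16.2 CPM in Control (SD, n = 10) and 156.1 ± 8.86 in Dehydrated (SD, n = 10), a difference of 0.11 on the log2 scale (SE 0.06, edgeR adjusted p 0.783). Bloc1s2, which starts 1932 bases past the end of Pkd2l1 on the same strand, averaged 40.2 ± 9.01 CPM in Control (SD, n = 10) and 37.7 ± 2.85 in Dehydrated (SD, n = 10), a difference of -0.09 (SE 0.10, edgeR adjusted p 0.85). Spp1, 31.1 kb from Pkd2 on the same strand, rose from 176 ± 44.7 CPM in Control (SD, n = 10) to 563.8 ± 294.1 in Dehydrated (SD, n = 10). The difference was 1.69 (SE 0.25, edgeR adjusted p 0.00304), beside the 0.15 of Pkd2. The adjusted p of Spp1 was the smallest over all genes in that contrast. Spp1 was named with earlier results of these data known, and other genes near the members were not read.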

How the data were processed

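Per the file headers, the authors deposited whole counts of fragments for each gene, from featureCounts 1.6.2 run on read pairs with no strand option. The submitters' processing notes name FastQC, featureCounts and DESeq2. An aligner was not given in the sources used here. Their deposited tables hold log2 fold changes, standard errors and p-values made by the authors with DESeq2, per the submitters' processing notes. There, 56 columns of per-library values were not used here, and none carries the code of Control M01.

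The tests used edgeR 4.0.16 (R 4.3.3) on the counts. The filterByExpr step left 17558 of 29170 genes, library totals were scaled with TMM, and the robust quasi-likelihood fit on group and sex across the 29 libraries had 25 residual degrees of freedom. Each contrast was adjusted by Benjamini-Hochberg at 0.05. Each SE from edgeR is the absolute log2 difference divided by the square root of the test's F statistic. The nominal 95% intervals are 1.96 SE on either side, which is somewhat narrower than that test implies. Log2 CPM used a prior count of 2. Relations were computed in Python 3.11.15 with numpy 2.4.6, and plots were drawn with matplotlib 3.10.9. Names came from the authors' tables (9699 genes) or from a RefSeq table of the same assembly (5594 genes).

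The members and gene lists were chosen with earlier results of these data known. Genes named are the members, the other polycystins, the 5 closest to Pkd2l1 by each of 2 rank correlations, Avp, Oxt, and of each list the called members, at most 4, or else the 2 with the smallest p in Dehydrated against Control; 1 gene so named is not reported here. Trpv1, Trpv4 and the neighbours Tsc2, Bloc1s2 and Spp1 are named outside this rule. So are Foxa2, Gata3, Gata2, somatostatin, Carhsp1, P2rx2, Nkx6-1, Myo3b and Uts2b, and of the ependymal list Tmem212, Foxj1, Tekt1, Rsph1 and Cfap126. Each library was taken as 1 animal. The sex label was used, which in 3 libraries differs from the letter of the name. All 126 replicate pairs differed beyond sampling noise (chi-square per degree of freedom 8.9 to 162.43). The fits were tested on simulated data. As alternatives, DESeq2 1.42.0, other size factors, filters and covariates, a replicate block, the sexes apart and the omission of each library were run. Leaving out Control M01 with Control F03, or under DESeq2, was chosen after seeing the data.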

Additional observations from a re-analysis of the deposited data

Results flagged for a closer look

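In 30 sets of values (9 genes and the ratio of Pkd1 to Pkd2 in 3 groups), 10 had a library whose gap to its nearest neighbour was over Dixon's 95% critical value for the group, where chance flags about 1 in 20 if values are roughly normal. Of the 10, 5 are sets of Pkd2l2 or Pkdrej, which hold few reads and many zeros, so that rate does not apply to them. Control M01 was the lowest of its group in Pkd1 at 146.8 CPM (next 283.5) and in Pkd2 at 15.1 CPM (next 32.5). Rehydrated M04 had the lowest ratio of Pkd1 to Pkd2 per kb at 1.73 (next 2.37). Dehydrated F07 had the highest Pkd1l3 at 2.24 CPM (next 1.28). Pkd2l2 stood out at 0.829 CPM in Control F01, 0.447 in Dehydrated M09 and 0.784 in Rehydrated M06, all within 14 reads. Pkdrej stood out at 0.377 CPM in Control F01 and 0.0573 in Rehydrated F04, within 5 reads. Control M05 had the highest Avp of Control at 2422.7 CPM (next 1201.8). No Pkd2l1 value was flagged in any group.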

How the results depend on the processing

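The Pkd2l1 difference between Dehydrated and Control kept its sign in every alternative run, given here as sizes of the contrast that chose the gene. It was -1.17 with the replicate block, -1.24 with only the 2 groups compared, -1.27 in females alone and -1.19 in males alone. With each library left out it ran from -1.36 to -1.11, at -1.11 without Control F01, -1.15 without Control M03 and -1.20 without Dehydrated M09. The replicate numbers were not taken as pairing the animals: over 19 pairs of same-numbered libraries the correlation of deviations ran from -0.12 to 0.11, and 2 of 23 libraries correlated best with their own number. In Rehydrated against Dehydrated, Pkd2l1 ran from 0.77 to 1.03 with each library left out and was called in no alternative.

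The 22 genes called in Dehydrated against Control became 39 with DESeq2, 40 with DESeq2 without Control M01, 12 with the replicate block, 11 with the 2 groups alone, 12 without Control M01 and Control F03, 0 in females or males alone, and 10 to 27 with each library left out. The 0 of Rehydrated against Control became 18 with DESeq2, 3 with DESeq2 without Control M01, 2 in females alone and 0 to 2 with each library left out. The 4 of Rehydrated against Dehydrated became 13, 16 (DESeq2 without Control M01), 1 with the 2 groups alone, 0 in females, 1 in males and 2 to 9 with each library left out. The 6 between the sexes became 10 with DESeq2, 12 with DESeq2 without Control M01, 16 with no filter and 3 with the replicate block, and the 0 of the sex difference of the response became 2 with DESeq2.

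Values near 0 changed sign without a call. Pkd1 in Dehydrated against Control was -0.078 in females alone, and in Rehydrated against Control 0.054 in males alone. Pkd2 in Rehydrated against Control was -0.031 in females alone, -0.026 with DESeq2 without Control M01, and -0.027 to 0.117 with each library left out. Pkd1l2 in Dehydrated against Control was -0.033 with the replicate block. With the replicate block the male minus female values were 0.14 for Pkd2l1 and 0.14 for Pkd2. The sex difference of the response ran from -0.29 to 0.38 for Pkd2l1 and from -0.10 to 0.19 for Pkd2 with each library left out, and was -0.028 for Pkd2 without Control M01 and Control F03. The within-group r ran from -0.11 to 0.12 for Pkd2l1 with Pkd1, from 0.14 to 0.31 for Pkd2l1 with Pkd2, from -0.04 to 0.11 for Pkd2l1 with Avp and from -0.09 to 0.73 for Pkd1 with Pkd2. At 27 to 323 reads, counting alone gives Pkd2l1 an SD of 5.56% to 19.2% a library.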
